A study of Mus musculus with 8 samples.

Results

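A set of 10 genes of the cartilage and bone lineages, collagens left out, were taken by name to follow skeletal gene expression in Smurf2-/- and wild-type embryonic fibroblasts of the mouse. They were Sox9, Sox5, Sox6, Acan, Comp, Runx2, Sp7, Alpl, Spp1 and Ibsp. A transcript cluster, the set of probes that reports one transcript region, was used if its only gene symbol was a listed gene. Of the 10 listed genes, 8 were measured, each by 1 cluster, out of 17501 genes measured in all. Runx2 and Spp1 were not analysed here.

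Mouse embryonic fibroblasts are mesenchymal cells cultured from minced embryos, and Smurf2 encodes a ubiquitin ligase that directs Smad signalling proteins, among others, to the proteasome. The 8 arrays, 4 per genotype, cover every combination of genotype, background and passage class once. The C57B6 cells were at passage 7 (early) or 28 (late) and came from 1 embryo each. The mixed BL cells, of 129SVJ and NIH Black Swiss descent, were at passage 6 (early) or 33 (late); the wild-type cells were a mix of 2 embryos and the Smurf2-/- cells a mix of 3. The embryos of all 8 arrays were E14.5 by the sample descriptions and of day 11.5 in the growth protocol, a conflict the labels do not settle. Whether early and late cells were one culture is not said. No treatment is recorded. All values are log2 signals that the authors centred on each cluster's median over the 8 arrays, so they show differences of one gene between arrays and no level to set one gene against another. With 1 array per combination, no spread between replicate cultures could be measured. The spread behind each p-value is what the fitted terms leave between arrays, so unlike differences between matched pairs widen it. No label says that the cultures were independent.

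Cartilage forms when mesenchymal cells condense and turn on SOX9, the master transcription factor of chondrocytes. SOX9 works with SOX5 and SOX6, which it induces, to switch on the matrix genes of cartilage, among them Acan, the large proteoglycan aggrecan, and Comp, a thrombospondin-family matrix protein. Bone-forming cells depend on RUNX2 and, after it, on SP7 (osterix). Their mineralising matrix carries alkaline phosphatase, from Alpl, and the acidic glycoproteins osteopontin (Spp1) and bone sialoprotein (Ibsp). The embryonic limb and trunk hold progenitors of both lineages, and cultures of embryonic fibroblasts can contain such cells.

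The promoter windows are shown for genes whose values are described next: Acan and Sox6 stood highest on the same array, and Alpl separated the passage classes. Being highest on that array held for 10.8% of all genes, and such a separation, in either direction, for 10.0%. Each window runs from 250 bases before to 50 bases after a start site of RefSeq on GRCm38.p6 and is written 5′ to 3′ on the gene's strand. They lie at chr7:79052976-79053275 (Acan, plus strand), chr7:115824661-115824960 (Sox6, minus strand, 1 of its 6 windows) and chr4:137796335-137796634 (Alpl, minus strand, 1 of its 2 windows). Capitals mark matches on either strand to AACAAT (the core of SOX sites), TGTGGT (the core of RUNX sites) and GGGCGG (the GC box that SP factors bind); neighbouring matches can overlap.
Acan: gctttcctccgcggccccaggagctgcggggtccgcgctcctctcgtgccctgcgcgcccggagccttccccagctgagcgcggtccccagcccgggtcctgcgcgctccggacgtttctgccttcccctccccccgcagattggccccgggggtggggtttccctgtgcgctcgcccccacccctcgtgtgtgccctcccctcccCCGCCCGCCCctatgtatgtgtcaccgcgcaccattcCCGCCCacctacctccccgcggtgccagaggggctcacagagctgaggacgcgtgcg
Sox6: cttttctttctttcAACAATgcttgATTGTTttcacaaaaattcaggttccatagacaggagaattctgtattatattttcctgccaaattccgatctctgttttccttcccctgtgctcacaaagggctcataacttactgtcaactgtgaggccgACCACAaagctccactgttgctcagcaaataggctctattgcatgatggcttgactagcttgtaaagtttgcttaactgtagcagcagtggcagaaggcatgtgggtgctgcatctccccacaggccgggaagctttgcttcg
Alpl: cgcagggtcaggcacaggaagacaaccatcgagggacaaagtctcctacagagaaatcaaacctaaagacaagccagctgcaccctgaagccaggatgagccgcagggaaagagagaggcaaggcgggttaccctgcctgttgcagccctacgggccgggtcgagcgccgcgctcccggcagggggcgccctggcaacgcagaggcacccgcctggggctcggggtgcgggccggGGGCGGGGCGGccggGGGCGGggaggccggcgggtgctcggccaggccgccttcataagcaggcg

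The Acan window was 74.0% G or C and held 3 GC boxes, 2 of them overlapping, and no match to the other motifs. The Alpl window was 70.0% G or C and also held 3 GC boxes, 2 of them overlapping, while the median over all 32851 promoters in the table was 52.7%. The Sox6 window was 45.0% G or C and held 2 SOX cores, their leftmost bases at -236 and -225 from the start site, and 1 RUNX core at -93. It was chosen as the Sox6 window with SOX cores; of the other 5, 1 held 4 GC boxes, 1 held a RUNX core and 3 held no match, and the other Alpl window held none. Of all promoters, 10.7% held the SOX core, 16.8% the RUNX core and 35.7% the GC box. A GC box is therefore the commonest of the 3, and a match is a description and not a shown binding site. Windows were listed for 5 of the 8 measured genes, and those of Sox5 and Ibsp are not printed: the Sox5 window held none of the 3 motifs, and the Ibsp window held 1 SOX core.

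The genes differed widely in how much they varied over the arrays. The range from the lowest to the highest array was 2.18 for Sox9, 1.92 for Acan, 1.82 for Sox6 and 1.23 for Sox5 on the log2 scale. Of all genes, 96.9%, 95.4%, 94.7% and 86.9% had a smaller range than these, in the same order. Alpl had a range of 0.80, with 69.9% of genes below it. Comp, Sp7 and Ibsp had ranges of 0.30, 0.27 and 0.15, below the median of 0.54 over all genes. The numeric step of the deposited values gives a coarse level. Sox9 lay at a log2 signal of 8 or above on all arrays, as did 22.2% of transcript clusters. The other 7 genes lay at 4 or above on all arrays and below 8 on at least 1. No floor of detection is known for these values, so a gene near background and one of steady expression cannot be told apart.

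**Figure D1:**
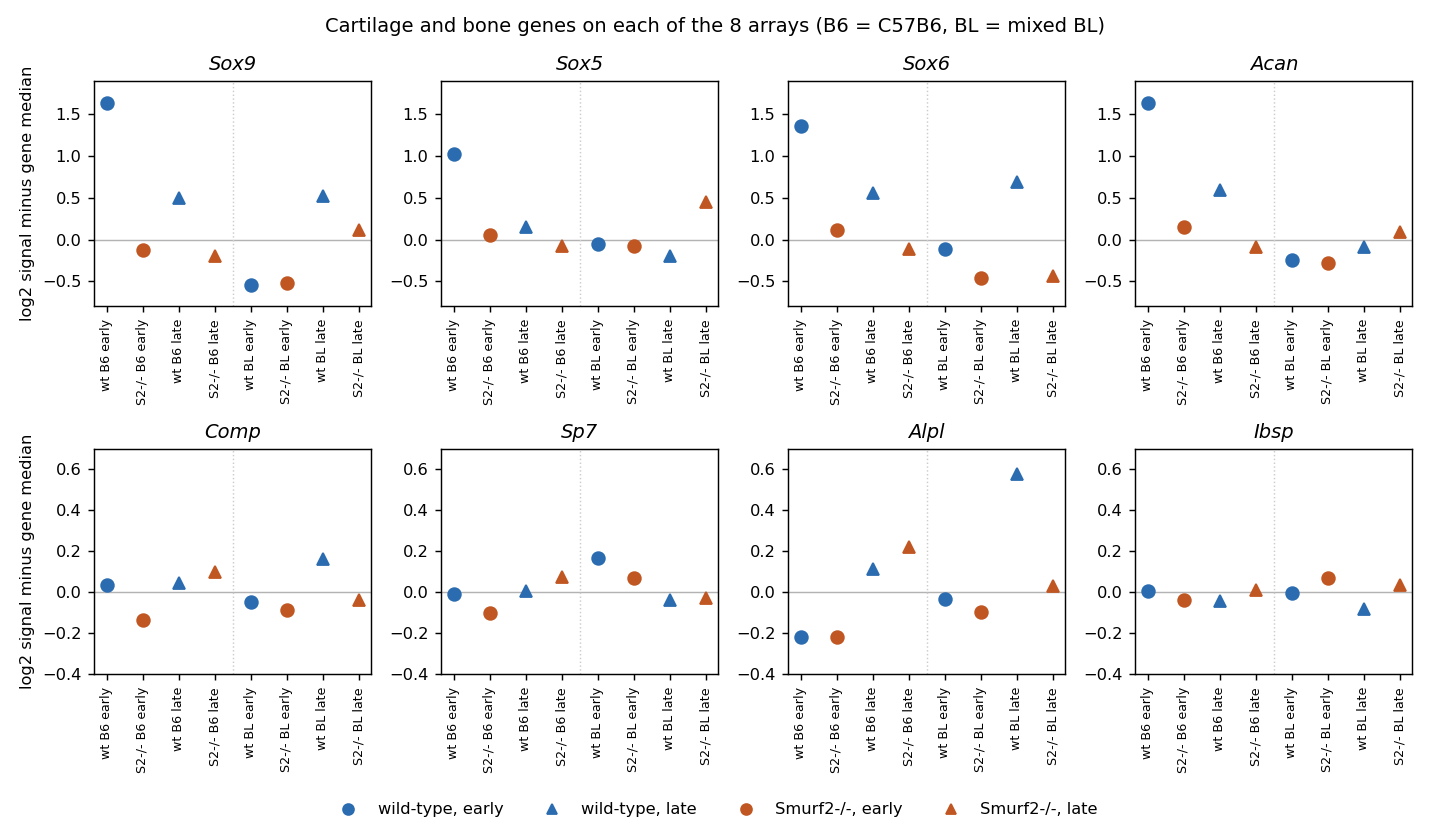
Centred log2 signal of the 8 measured genes on each array, with circles for early and triangles for late passage, blue for wild-type and orange for Smurf2-/-; the lower row has a narrower axis. Sox9, Sox5, Sox6 and Acan are highest on the wild-type C57B6 early array, and the 4 late arrays of Alpl lie above its 4 early arrays. The latter held for 5.44% of all genes.

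Sox9 stood at 1.64 on the wild-type C57B6 early array and at -0.12 on its Smurf2-/- partner. At late passage in C57B6 it stood at 0.50 in wild-type and -0.19 in Smurf2-/- cells. In mixed BL it stood at -0.54 and -0.52 at early passage and at 0.52 and 0.12 at late passage, wild-type first. One array was thus far above the others, by 1.11 over the next (2.16-fold), and the lowest pair was the early mixed BL pair, where the genotypes differed by only 0.02. Within C57B6 both Smurf2-/- arrays were lower than their partners.

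Sox6 stood at 1.36 and 0.11 in C57B6 at early passage and at 0.56 and -0.12 at late passage, wild-type first. In mixed BL it stood at -0.11 and -0.46 at early and at 0.69 and -0.43 at late passage. The 3 highest arrays were all wild-type, and the Smurf2-/- array was the lower in 4 of 4 matched pairs. The genotypes overlapped only through the early wild-type mixed BL array and the early Smurf2-/- C57B6 array. The share of all genes with the same sign in 4 of 4 pairs was not counted, here or below.

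Sox5 stood at 1.03 and 0.05 in C57B6 at early passage and at 0.15 and -0.08 at late passage, wild-type first. In mixed BL it stood at -0.05 and -0.08 at early and at -0.20 and 0.45 at late passage. The second highest array was Smurf2-/-, so Sox5 did not share the genotype order of Sox6.

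Acan, the main proteoglycan of cartilage matrix, stood at 1.64 and 0.15 in C57B6 at early passage and at 0.59 and -0.09 at late passage, wild-type first. In mixed BL it stood at -0.25 and -0.29 at early and at -0.09 and 0.09 at late passage. Both wild-type C57B6 arrays were the highest, and the 4 mixed BL arrays lay within 0.37 of each other.

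Sox9, Sox5, Sox6 and Acan therefore shared their highest array, the wild-type C57B6 culture at early passage. The gap to the next array was 1.11, 0.58, 0.68 and 1.04 for Sox9, Sox5, Sox6 and Acan. Over the Smurf2-/- C57B6 early array the 4 genes stood 3.38-, 1.97-, 2.38- and 2.79-fold higher, a difference between 1 array and 1 array with no replicate. Of all genes, 10.8% were highest on that array, against 4 of the 8 measured here. A gap of at least 0.5 over the next array was found there for 0.869% of all genes and for the same 4 of 8. Both the array and the size of the gap were chosen after the values were seen. The median range of all genes was 0.54, against 1.23 or more for these 4, so the shares are not like for like and only describe. Col2a1, the cartilage collagen and a direct SOX9 target outside the gene set, was also highest there, at 2.14, with 1.65 and 1.64 on the late wild-type arrays of mixed BL and C57B6.

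The co-variation can be given only as a description, over 8 arrays that share this 1 high array. The Pearson correlation was 0.91 between Sox9 and Acan, 0.90 between Sox9 and Sox6, 0.77 between Sox9 and Sox5, 0.89 between Acan and Sox5, 0.82 between Acan and Sox6, and 0.54 between Sox6 and Sox5. Sox5 and Sox6, which encode closely related proteins, were thus the least alike pair of the 4. By the same measure the genes most like Sox9 among all measured were Ptpn2 (0.99), Erg (0.98) and Ralgapa1 (0.97). Those most like Acan were Tmco4 (0.99), Ppp4r4 (0.98) and Plekha4 (0.98), and those most like Sox6 were Mir335 (0.99), Iqsec1 (0.99) and Zfp738 (0.98). All 9 were highest on the wild-type C57B6 early array, which follows from picking genes by high correlation with Sox9, Acan and Sox6.

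Comp, the thrombospondin-family matrix protein, was nearly level, between -0.14 and 0.16. Sp7, the osteoblast transcription factor osterix, ranged from -0.10 on the Smurf2-/- C57B6 early array to 0.17 on the wild-type mixed BL early array. Ibsp, bone sialoprotein, ranged from -0.08 to 0.07. None of the 3 was highest on the wild-type C57B6 early array.

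Alpl, the tissue-nonspecific alkaline phosphatase that osteoblasts and other mesenchymal cells use to release phosphate, stood at -0.22 on both early C57B6 arrays and at -0.03 and -0.10 on the early mixed BL arrays, wild-type first. At late passage it stood at 0.12 and 0.22 in C57B6 and at 0.58 and 0.03 in mixed BL. Each late array was above every early array, the nearest being 0.03 against -0.03, as held for 5.44% of all genes.

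The genotypes were compared first, with a limma model that held background and passage class. None of the 8 genes passed the threshold, an adjusted p of 0.05, which 5 genes or 0.0286% of all genes passed. At an unadjusted p under 0.05 there was 1 of the 8, Sox6, and 1322 of all genes. Sox6 differed by -0.85 ± 0.25 (SE, 4 against 4 arrays), or 1.80-fold, with a limma adjusted p of 0.651, and the pairs differed by -1.25, -0.67, -0.35 and -1.12. Sox9 differed by -0.71 ± 0.41 (adjusted p = 0.676) and Acan by -0.51 ± 0.33 (adjusted p = 0.703).

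The pairs were not alike. For Sox9 the pairs differed by -1.76 and -0.70 in C57B6 and by 0.02 and -0.40 in mixed BL, early first. For Acan they differed by -1.48 and -0.68 in C57B6 and by -0.04 and 0.18 in mixed BL. For Sox5 they differed by -0.98, -0.23, -0.03 and 0.65 in the same order, and the mean difference was -0.15 ± 0.28 (SE, limma adjusted p = 0.897). Without the wild-type C57B6 early array the difference was -0.63 for Sox6, -0.26 for Sox9 and -0.15 for Acan, and Sox5 turned to 0.15.

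The bone genes and Comp differed little by genotype: Alpl by -0.13 ± 0.11 (SE), Comp by -0.09 ± 0.06, Sp7 by -0.03 ± 0.08 and Ibsp by 0.05 ± 0.06. Their limma adjusted p ranged from 0.723 to 0.924. The 95% interval ran from -0.41 to 0.15 for Alpl, from -0.25 to 0.07 for Comp, from -0.22 to 0.16 for Sp7 and from -0.09 to 0.19 for Ibsp, and those of Sox9 (-1.71 to 0.29) and Acan (-1.31 to 0.30) were far wider. In all, 7 of the 8 differences were below 0, with a median of -0.14 against 0.02 over all genes. Of the cell type lists described at the end, all 4 tendon markers also had differences below 0, with a median of -0.21, and none passed. The medians of the other 7 lists lay between -0.0026 and 0.20, and the fibroblast markers were 7 higher and 6 lower (median 0.02). The part of tendon cells in the members' differences was not tested. The 4 arrays of one genotype did not all lie above those of the other for any of the 8, against 2.17% of all genes. Smurf2 itself was lower by 1.57 on the log2 scale, with a limma adjusted p of 0.0484. It was lower in 4 of 4 pairs, and its genotypes did not overlap. Whether its probes lie in the deleted part is not known here. The call of Smurf2 was lost with quantile normalisation, with array medians subtracted, with all interactions in the model and with chromosome X and Y genes left out, where 0 genes passed. Xist lay between 1.53 and 3.20 on the wild-type and between -2.07 and -1.53 on the Smurf2-/- arrays, and the Y-linked Eif2s3y between -1.37 and -1.28 and between 1.28 and 2.60. The labels give no embryo sex, but these markers of sex split the arrays exactly as genotype does. A difference by sex and one by genotype therefore cannot be told apart, for the members as for all genes.

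**Figure D2:**
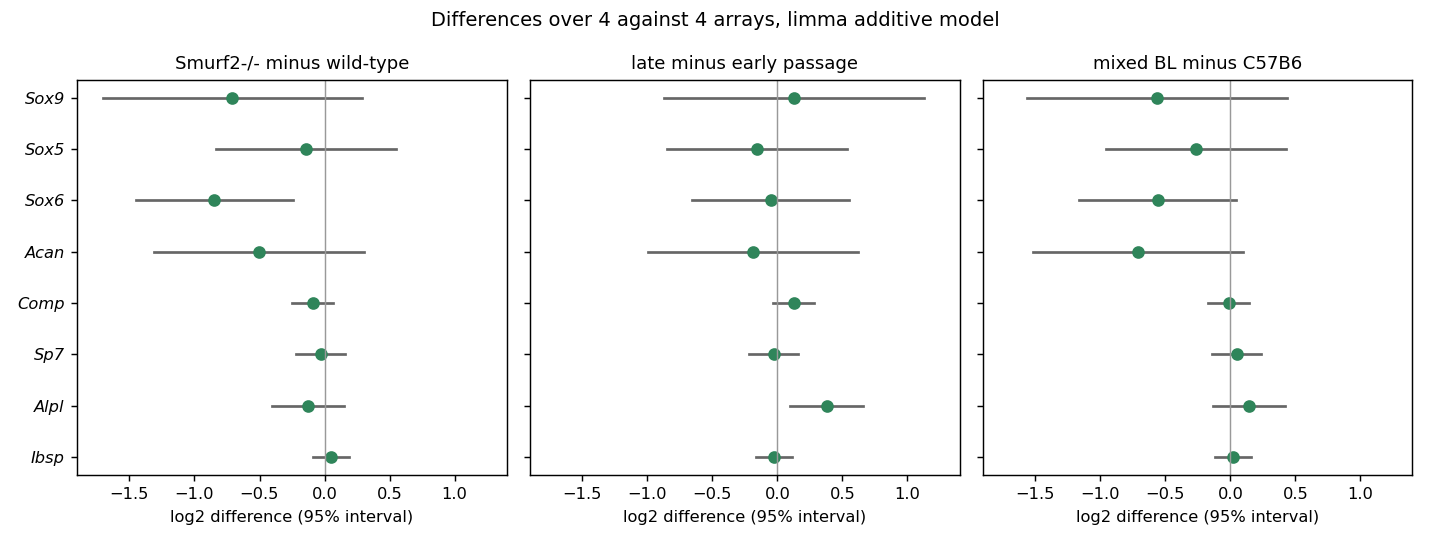
Log2 difference of each gene for genotype, passage and background, from the limma additive model over 4 against 4 arrays; points are the estimates and bars their 95% intervals, not adjusted for the number of genes. The interval excludes 0 only for Sox6 by genotype and Alpl by passage, and neither passed the adjusted threshold.

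Late and early passage were compared next. Alpl differed by 0.38 ± 0.11 (SE, 4 against 4 arrays), or 1.30-fold, with a limma adjusted p of 0.203, and was higher in 4 of 4 pairs: by 0.33 and 0.44 in C57B6 and by 0.61 and 0.13 in mixed BL, wild-type first. It was the 1 gene of 8 whose passage classes did not overlap, which held for 10.0% of all genes in either direction and for 5.44% with late above early. A count of 1 in 8 is near the share of all genes in either direction. Comp differed by 0.13 ± 0.06, also higher late in 4 of 4 pairs, with an adjusted p of 0.374. None of the 8 passed, as against 3 genes (0.0171%), and 1 of 8, Alpl, had an unadjusted p under 0.05, as did 3022 of all genes.

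For Sox9, Sox6 and Acan the passage differences had opposite signs in the 2 backgrounds, which no test called. Sox9 differed from early to late by -1.13 and -0.07 in C57B6 and by 1.07 and 0.64 in mixed BL, wild-type first. Sox6 differed by -0.81 and -0.23 in C57B6 and by 0.80 and 0.03 in mixed BL, and Acan by -1.04 and -0.24 against 0.16 and 0.37. Every C57B6 pair of these 3 genes was thus lower late and every mixed BL pair higher late. The share of all genes with such signs was not counted. The 3 genes also share their highest array, so they are not 3 separate observations. Sox5 was lower late in both C57B6 pairs, at -0.88 and -0.13, and stood at -0.15 and 0.53 in mixed BL. The test of the passage difference in mixed BL minus that in C57B6 gave 1.46 ± 0.60 (SE) for Sox9, 0.93 ± 0.34 for Sox6 and 0.90 ± 0.59 for Acan. The limma adjusted p was 0.576, 0.521 and 0.747. No gene of the whole table passed in this interaction (0%), with 1609 genes and 1 of the 8, Sox6, at an unadjusted p under 0.05. Averaged over the backgrounds, the passage differences were small: 0.13 ± 0.41 for Sox9, -0.05 ± 0.25 for Sox6, -0.19 ± 0.33 for Acan and -0.16 ± 0.28 for Sox5. Without the wild-type C57B6 early array they were 0.57, 0.16, 0.17 and 0.14.

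**Figure D3:**
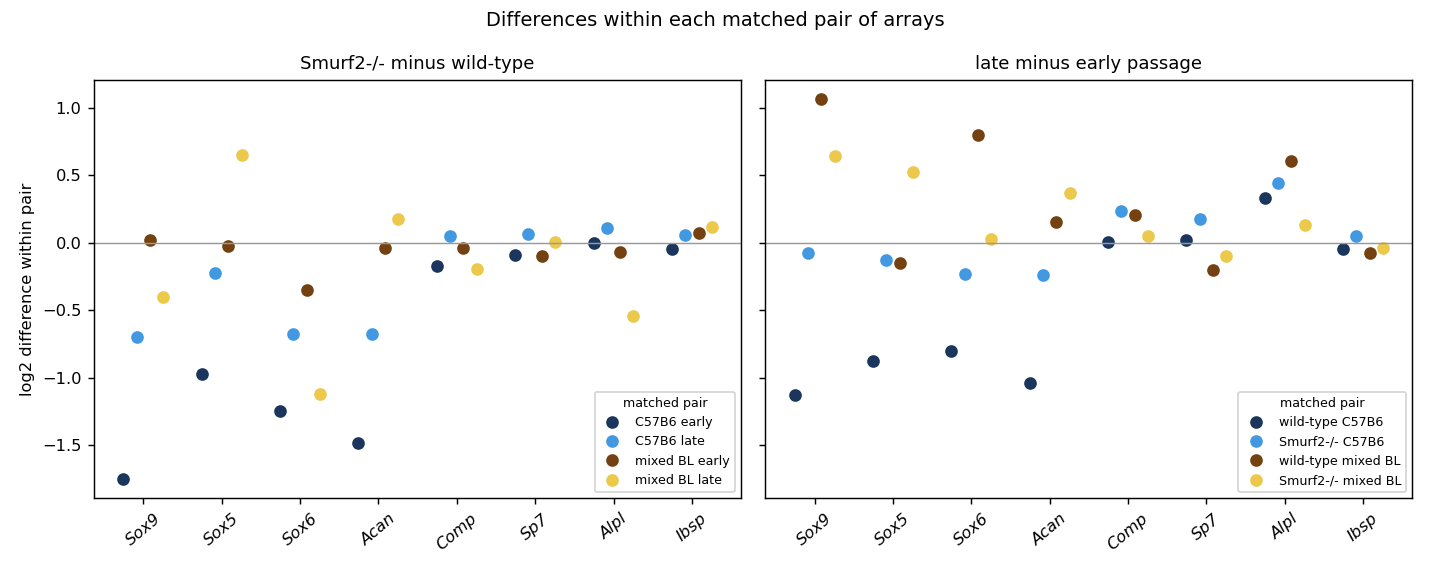
Log2 difference of each gene within each matched pair of arrays, Smurf2-/- minus wild-type on the left and late minus early passage on the right; each point is 1 pair. Sox6 lies below 0 in all 4 genotype pairs, and Sox9, Sox6 and Acan lie below 0 in the C57B6 and above 0 in the mixed BL passage pairs. The shares of all genes with such signs were not counted.

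Mixed BL was then set against C57B6. The largest differences of the 8 were those of Acan and the SOX genes: -0.71 ± 0.33 (SE) for Acan, -0.56 ± 0.25 for Sox6, -0.56 ± 0.41 for Sox9 and -0.26 ± 0.28 for Sox5. The limma adjusted p of these 4 lay between 0.406 and 0.793. The other 4 genes differed by 0.14 (Alpl), 0.05 (Sp7), 0.02 (Ibsp) and -0.01 (Comp). None of the 8 passed, against 14 genes (0.0800%), none had an unadjusted p under 0.05 against 2357 of all genes, and none had backgrounds that did not overlap, against 5.91% of all genes. Without the wild-type C57B6 early array the difference was -0.35 for Acan, -0.34 for Sox6 and -0.12 for Sox9, and 0.03 for Sox5.

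The difference between genotypes was also compared between backgrounds and between passage classes. Within C57B6 it was -1.23 ± 0.54 (SE) for Sox9, -1.08 ± 0.35 for Acan, -0.96 ± 0.38 for Sox6 and -0.60 ± 0.33 for Sox5. The limma adjusted p was 0.736 for each, and each value includes the wild-type C57B6 early array. Within mixed BL it was -0.19 ± 0.54, 0.07 ± 0.35, -0.73 ± 0.38 and 0.31 ± 0.33 in the same order. The limma adjusted p there lay between 0.993 and 0.999. The genotype difference in mixed BL minus that in C57B6 was 1.15 ± 0.50 for Acan, 1.04 ± 0.76 for Sox9, 0.91 ± 0.46 for Sox5 and 0.23 ± 0.53 for Sox6, with limma adjusted p from 0.939 to 0.958. None of the 8 and no gene at all (0%) passed in this interaction or in that of genotype with passage. At an unadjusted p under 0.05 there were 556 and 937 genes in these tests and none of the 8. The genotype difference of Sox6 was -0.80 early and -0.90 late, and that of Sox5 was -0.50 early and 0.21 late. The interaction of genotype with passage for Sox5 was 0.71 ± 0.52 (SE, limma adjusted p = 0.9998).

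Of 24 other genes of cartilage matrix and signalling, 22 were measured, and none passed in any of the 3 comparisons. By genotype 8 were higher and 14 lower, with a median of -0.06; by passage 14 were higher and 8 lower, with a median of 0.07; by background 9 were higher and 13 lower, with a median of -0.05. The same medians over all genes were 0.02, 0.03 and 0.00. Of the 22, 6 were highest on the wild-type C57B6 early array. They were Wwp2 (1.30), a ubiquitin ligase gene whose intron holds the cartilage miR-140, Cytl1 (1.24), a secreted protein of cartilage, and Matn3 (0.74), Ucma (0.66), Matn4 (0.62) and Scrg1 (0.35). Cytl1 and Ucma exceeded the next array by at least 0.5.

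Cnmd, which encodes the cartilage protein chondromodulin, had the lowest genotype difference of the list, -2.03 ± 1.07 (SE, limma adjusted p = 0.665). Its values were 2.88 and -0.77 in C57B6 early, 0.69 and -0.83 in C57B6 late, -0.69 and -0.85 in mixed BL early and 3.95 and 1.15 in mixed BL late, wild-type first. It was lower in the Smurf2-/- array of all 4 pairs, but its highest array was the late wild-type mixed BL array and not the one shared by the SOX genes. Matn2, a matrilin with a wider distribution than cartilage, went the other way by genotype, at 0.73 ± 0.18 (adjusted p = 0.651). Pth1r, the receptor for parathyroid hormone and its related peptide, had the lowest background difference of the list, -1.24 ± 0.29 (adjusted p = 0.197), and Matn3 the lowest passage difference, -0.25 ± 0.20 (adjusted p = 0.536). The highest were both those of Cnmd, 0.40 ± 1.07 by background (adjusted p = 0.943) and 1.10 ± 1.07 by passage (adjusted p = 0.613).

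**Figure D4:**
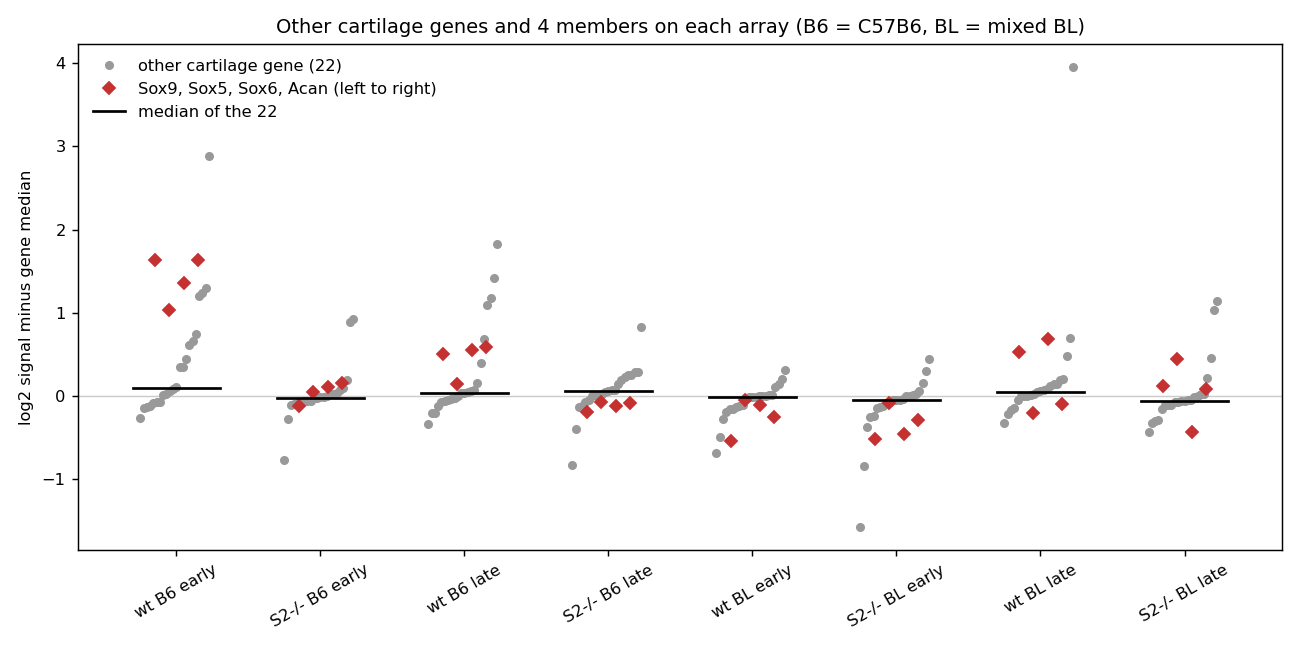
Centred log2 signal on each array of the 22 other cartilage genes (grey), ordered by value within an array, with their median (line), and of Sox9, Sox5, Sox6 and Acan (red). The median of the 22 stays between -0.06 and 0.10 on all arrays. The 4 red points lie between 1.03 and 1.64 on the wild-type C57B6 early array, where the median of all 8 members is 0.53. The 4 are the members highest on that array, so their height there is no comparison with the 22. Of the 22, Cnmd (2.88), Wwp2 (1.30), Cytl1 (1.24) and Pth1r (1.20) lie in or above the range of the 4 there, and the others lie below it.

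Of 29 other bone genes 24 were measured, and none passed. By genotype 15 were higher and 9 lower (median 0.06), by passage 13 and 11 (median 0.04) and by background 12 and 12 (median 0.02). Ogn, the small leucine-rich proteoglycan osteoglycin, had the lowest genotype difference, -1.95 ± 0.96 (SE, limma adjusted p = 0.656), and Pdpn, podoplanin, the highest, 0.71 ± 0.67 (adjusted p = 0.782). Dlx5, a homeobox factor that acts in osteoblast differentiation, had the highest passage difference, 0.80 ± 0.24 (adjusted p = 0.202), and Mgp, an inhibitor of mineralisation, the lowest, -0.98 ± 0.54 (adjusted p = 0.405). Ank, which exports the mineralisation inhibitor pyrophosphate, stood at 1.00 ± 0.23 by background (adjusted p = 0.189) and Mgp at -1.52 ± 0.54 (adjusted p = 0.312). These were the largest differences by background but not the lowest p. The lowest limma adjusted p of the list by background was 0.0557, close to the threshold, for a gene not named here. Of the 24, 4 were highest on the wild-type C57B6 early array.

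All 19 paralogs of the listed genes were measured, and none passed. By genotype 12 were higher and 7 lower (median 0.02), by passage 17 and 2 (median 0.08) and by background 9 and 10 (median -0.01). Thbs2, a thrombospondin related to Comp, differed by passage by -2.90 ± 0.98 (SE, limma adjusted p = 0.233), while Comp differed by 0.13. Vcan, the proteoglycan versican and a relative of aggrecan, differed by genotype by 0.47 ± 0.32 (adjusted p = 0.716), the opposite sign to Acan, and by background by 0.63 ± 0.32 (adjusted p = 0.472). Thbs3 had the lowest genotype difference, -0.40 ± 0.34 (adjusted p = 0.759). Sp1, a relative of Sp7, differed by passage by 0.47 ± 0.10 (adjusted p = 0.135), and Runx1, a relative of Runx2, by background by -0.45 ± 0.30 (adjusted p = 0.616). Of the 19, 2 were highest on the wild-type C57B6 early array.

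Markers of the labelled cell type and of other types are described here, which is no test of the label. Of 13 fibroblast markers, all measured, 8 lay at a log2 signal of 8 or above on every array, as did 22.2% of all transcript clusters. This range includes each probe set's own response, so it is given for each cell type list and is no comparison of levels between genes. Of the markers of macrophages and osteoclasts (13), skeletal muscle (9), endothelium (6), epithelium (7), nerve and glia (4 of 7) and fat (6), none did, and of 4 tendon markers 1 did. On the wild-type C57B6 early array the median of the fibroblast markers was 0.25, the highest of the 8 arrays, and the medians of the other lists lay between -0.25 and -0.02. All 13 fibroblast markers were lower late than early (median -0.24), none passing. Their part in the differences of the cartilage genes was not tested. In such bulk RNA, more cells of a type and more RNA per cell cannot be told apart.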

How the data were processed

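RNA was hybridised to 8 arrays, and the report uses the deposited table of log2 signals, 24169 transcript clusters by 8 arrays. The authors deposited log2 values with each cluster centred at its median over the arrays, since no row median was larger than 5e-07. How arrays were normalised and probes summarised is not given in the sources used. Although the series is described as run on an exon array, its identifiers were those of a gene-level array, whose annotation gave the names: 19134 clusters had 1 symbol, 1230 several and 3805 none. Symbols were updated by gene identifier for 19067 clusters with a RefSeq table. Clusters of a gene were averaged, giving 17501 genes; 899 had several clusters.

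All genes were fitted with limma 3.58.1 in R 4.3.3, with genotype, background and passage class as terms, without a mean-variance trend because centred values hold no mean level. Each 2-factor interaction was added in turn. Adjustment over all genes was by the Benjamini-Hochberg method. With 8 arrays the residual degrees of freedom were 4, or 3 with an interaction, which limits the precision. The coarse level comes from the numeric step that single-precision storage left in the deposited numbers, with a tolerance of 0.13 of the step. The fitting script was tested on simulated data.

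The members and the further lists were chosen with earlier results of these data known. The text names all members and, of each further list, genes that passed and those with the largest difference in each direction. For the cell type lists only counts and medians are given. For likeness it names the 3 genes of highest correlation with each of the 3 members of widest range. Gene windows and motif positions come from RefSeq promoters on GRCm38.p6, matched by symbol; 7 of the 10 listed genes had 1 or more windows, 14 in all. Sample titles end in a number that is 1 on every early and 2 on every late array. The titles do not say what it stands for, so its meaning and passage class cannot be told apart. Arrays of the genotypes are paired by background and passage class, and the fit holds that pairing.

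Alternatives were quantile normalisation of the centred values, subtraction of array medians, a mean-variance trend, a robust prior, single clusters and all interactions together. Others left out genes of chromosomes X and Y, the passage term of the fit, or each array in turn.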

Additional observations from a re-analysis of the deposited data

Results flagged for a closer look

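Within groups of 4 arrays, 48 were examined (8 genes at each level of each factor), and in 1 the most distant array lay beyond Dixon's 95% limit, which chance exceeds in about 1 group in 20. It was Sox5 in the early arrays: the wild-type C57B6 array stood 0.98 above the next, or 0.879 of the whole range of the group.

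Of 24 interactions of the members examined, 5 had differences that ran one way in both pairs of one background or passage class and the opposite way in both pairs of the other. The share of all genes with such signs was not counted. For late against early passage, mixed BL minus C57B6, these were Sox9 (1.46, limma adjusted p = 0.576), Sox6 (0.930, adjusted p = 0.521), Acan (0.905, adjusted p = 0.747) and Sp7 (-0.248, adjusted p = 0.653). For Smurf2-/- against wild-type, late minus early, it was Sp7 (0.134, adjusted p = 1.00). None passed the threshold.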

How the results depend on the processing

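No member passed the threshold for genotype, passage or background under the alternatives run. None passed in the interactions either, which were run with quantile normalisation, a trend, single clusters, all interactions together and each array left out. Counts of genes passing in the whole table changed with most settings. For genotype the 5 became 0 with quantile normalisation, array medians subtracted, all interactions, or chromosomes X and Y left out, 3 with a trend, 1 with a robust prior, 3 over single clusters and 0 to 1 with an array left out. For passage the 3 became 0 with medians subtracted, a robust prior, single clusters or all interactions, 25 with a trend and 0 to 2 with an array left out. For background the 14 became 1 with quantile normalisation or all interactions, 7 with medians subtracted, 28 with a trend, 5 with a robust prior, 66 over single clusters, 8 without X and Y genes and 1 to 21 with an array left out. With passage left out of the fit the counts were 4 for genotype and 14 for background.

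Of the members' differences, the sign changed under 1 setting that kept all arrays: Sox6 by passage, at 0.0369 with quantile normalisation. With an array left out the ranges that crossed 0 were, by passage, -0.24 to 0.57 for Sox9, -0.44 to 0.14 for Sox5, -0.29 to 0.16 for Sox6, -0.47 to 0.17 for Acan and -0.0827 to 0.0216 for Sp7. By genotype they were -0.43 to 0.15 for Sox5 and -0.0851 to 0.0192 for Sp7. By background they were -0.55 to 0.0326 for Sox5, -0.0505 to 0.0207 for Comp and -0.0081 to 0.0452 for Ibsp. For Sox5 all 3 signs turned without the wild-type C57B6 early array. The cause was not tested. Signal over background is unknown.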
